A study of Mus musculus with 17 samples.

Results

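Complement is a cascade of blood and tissue proteins, and the 9 genes followed here encode its early components and the receptors for its small activation fragments. C1qa, C1qb and C1qc encode the chains of C1q, which recognises bound antibody and dying cells. C2 and C4b encode parts of the classical convertase, Cfb (factor B) is its counterpart in the alternative pathway, and C3 is the protein that both convertases cleave. C3ar1 and C5ar1 encode the receptors for the anaphylatoxins C3a and C5a. These genes were taken by symbol from the table of raw counts, as 9 of 43629 genes, and were followed through 17 libraries in 8 groups. All 9 had counts and passed the filter on low values (over 0.5 CPM in at least 2 libraries), as did 22671 genes in all. Cfb passed it in 6 of 17 libraries, and the other genes in 16 or 17.

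Tissue macrophages are the usual source of C1q and carry both anaphylatoxin receptors. C3 and the convertase components are made mainly by the liver for the blood, and also locally by epithelial cells, mesothelium and fibroblasts. In the peritoneal cavity, which holds resident macrophages and is lined by mesothelium, both sources can contribute to the fluid. The cultured tumour line, which holds no macrophages, shows which components the tumour cells transcribe in culture. What they transcribe in the mouse was not measured apart from host cells.

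The study sequenced total RNA to compare tumours of ID8, a mouse ovarian surface epithelial line, grown at different sites. The untreated cultured line gave 1 library. Orthotopic tumours (n = 3) grew on the ovary after injection of ID8 cells into the ovarian bursa, and subcutaneous tumours (n = 2, numbered 2 and 3) grew under the skin, with the scruff as the labelled tissue and the flanks in the protocol. Ascites, the tumour fluid of the peritoneum with its cells, was drawn in turn from mice whose orthotopic tumours had spread, and the first tap (n = 3) and the second tap (n = 3) were used here. Intestinal tumours (n = 3) were solid metastases on the intestine. Healthy ovary (n = 1) and healthy intestine (n = 1) came from untreated C57BL6 mice. The labels give no genotype, strain of tumour host, age or interval between taps, and do not say which samples share an animal. All p-values therefore measure the spread between these libraries, and libraries of the 2 taps may come from the same mice.

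Library totals ran from 12031221 to 38902048 counts, with a median of 27342134. Levels are given as CPM, that is, counts brought to the same total over the tested genes in every library, with TMM factors. Counting intervals and the limit for a count of 0 (3 counts) cover counting error only. Subcutaneous tumour 2 stood apart, with 1418 CPM of summed B cell markers (1.26 to 192 CPM in the other libraries outside the line), 4183 CPM of adipocyte markers and 34.1 CPM of mesothelial markers against 577 CPM in subcutaneous tumour 3. The intestinal tumours held 4751 to 12182 CPM of intestinal epithelial markers, as healthy intestine did (9916 CPM). Subcutaneous tumour 3, the third library of the first tap and the first of the second tap had the most genes detected, 33393, 32846 and 32775, against 21157 to 26838 in the others.

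Beginning with the line, the C1q chains were absent at its depth and C3 was abundant. C1qa, C1qb, C1qc, C4b and C5ar1 each had 0 counts, which allows up to 0.0795 CPM. Cfb had 2 counts, or 0.0530 CPM. C3ar1 had 22 counts, or 0.583 CPM (exact Poisson 95% interval 0.365 to 0.882), and C2 had 36 counts, or 0.954 CPM (0.668 to 1.32). C3 had 42831 counts, or 1134.5 CPM (1124 to 1145). Macrophage genes were low in the same library, though not all absent. Adgre1 (F4/80) and Mrc1 (CD206) had no counts, and Csf1r (the receptor for macrophage colony-stimulating factor) was at 0.742 CPM. Cd68 had 178 counts, or 4.71 CPM, beside 16.9 to 35.1 CPM in orthotopic tumours. Of the 10 macrophage markers 6 had 3 or more counts, and the 10 summed to 15.8 CPM against 213 to 5342 CPM in the other libraries.

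**Figure D1:**
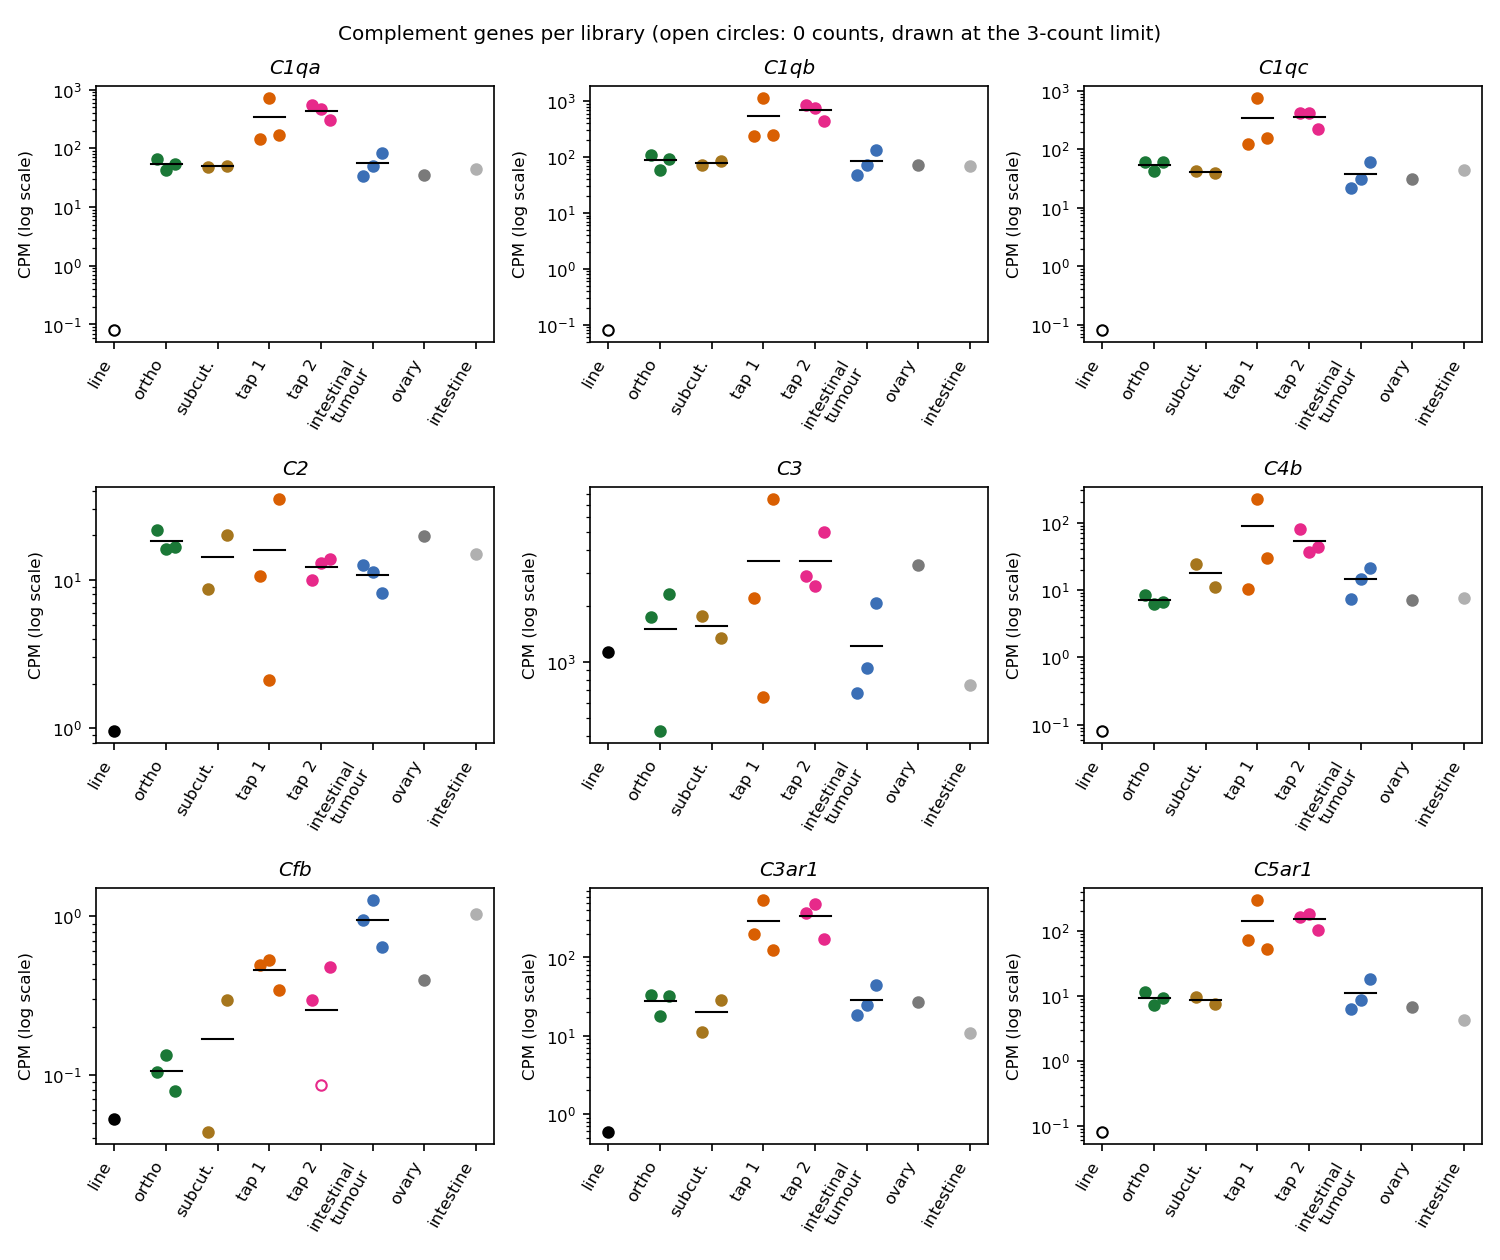
CPM of each of the 9 genes on a log axis, 1 point per library, grouped by site, with a black bar at each group's mean. The C1q chains, C3ar1 and C5ar1 lie higher in all 6 ascites libraries than in every other library, C3 is present in the line at 1134.5 CPM, and Cfb reaches at most 1.27 CPM.

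The C1q chains formed the most uniform part of the set. C1qa (ENSMUSG00000036887) measured 65.4, 43.1 and 53.6 CPM in orthotopic tumours 1 to 3, 48.8 and 50.6 CPM in the subcutaneous tumours, and 34.1, 49.5 and 83.1 CPM in the intestinal tumours. In ascites it measured 141, 727 and 171 CPM at the first tap and 545, 465 and 301 CPM at the second. Healthy ovary had 35.6 CPM and healthy intestine 44.9 CPM. Every ascites library was thus above every solid tissue, and the solid tumours overlapped one another.

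C1qb (ENSMUSG00000036905) was also highest in ascites. Its levels were 109, 59.8 and 92.7 CPM in orthotopic tumours, 236, 1156 and 251 CPM at the first tap, and 871, 752 and 443 CPM at the second. The range was 72.2 to 86.3 CPM in subcutaneous tumours and 48.3 to 136 CPM in intestinal tumours, with 71.2 CPM in ovary and 68.5 CPM in intestine. The second library of the first tap was the highest for all 3 chains, and taps and solid tissues did not overlap.

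C1qc (ENSMUSG00000036896) measured 60.035, 43.4 and 61.8 CPM in orthotopic tumours, 124, 771 and 154 CPM at the first tap, and 413, 426 and 221 CPM at the second. Subcutaneous tumours had 42.7 and 39.4 CPM, intestinal tumours 22.2 to 60.1 CPM, ovary 30.7 CPM and intestine 44.7 CPM. Per kilobase of exon, the mean levels in orthotopic tumours were 51.9 CPM for C1qa, 80.2 CPM for C1qb and 28.5 CPM for C1qc. Across the 16 libraries with C1q, the CPM of C1qb was 139 to 200% of that of C1qa, and the CPM of C1qc was 62.1 to 115%. The lowest C1qc shares were those of the intestinal tumours, 62.1 to 72.3%. Over all 17 libraries, log2(CPM + 1) of C1qa correlated with that of C1qb at r = 0.997 and of C1qc at r = 0.994. Without the line the values were 0.996 and 0.987, and libraries of 1 group share a site and possibly animals.

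Promoter sequence is shown for C1qb, C3 and C3ar1, since the rise of C1q and the receptors in ascites set them against C3. RefSeq's promoter table for GRCm38.p6 matched 5 of the 9 genes. The 250 bases before the start of C1qc and C5ar1 overlap annotated exons and are not shown, and C1qa, C2, C4b and Cfb had no entry. The windows, all on the minus strand and written 5′ to 3′, are C1qb at chr4:136886201-136886450, C3 at chr17:57228137-57228386 and C3ar1 at chr6:122856158-122856407.
C1qb: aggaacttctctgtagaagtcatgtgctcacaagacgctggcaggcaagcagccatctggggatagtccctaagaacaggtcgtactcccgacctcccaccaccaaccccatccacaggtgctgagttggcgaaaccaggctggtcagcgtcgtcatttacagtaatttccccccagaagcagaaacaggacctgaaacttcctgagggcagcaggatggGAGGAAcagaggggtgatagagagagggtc
C3: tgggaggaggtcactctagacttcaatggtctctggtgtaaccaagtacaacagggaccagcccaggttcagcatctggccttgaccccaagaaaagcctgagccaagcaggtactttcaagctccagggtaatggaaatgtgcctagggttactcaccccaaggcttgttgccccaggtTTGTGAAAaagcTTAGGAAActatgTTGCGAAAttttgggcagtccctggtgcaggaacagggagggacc
C3ar1: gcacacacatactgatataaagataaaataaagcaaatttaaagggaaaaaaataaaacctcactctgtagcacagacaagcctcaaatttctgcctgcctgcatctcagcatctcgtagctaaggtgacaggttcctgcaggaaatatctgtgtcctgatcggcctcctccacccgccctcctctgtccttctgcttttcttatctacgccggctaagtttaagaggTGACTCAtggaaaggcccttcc
Capitals mark matches to 3 motifs, searched on both strands and chosen after the sequences were seen. GAGGAA, the core of a PU.1 site (a myeloid factor), matched in C1qb and occurs in 23.2% of 32851 promoter windows of this length. It also matched in the window of C1qc. TTNNGNAA, a C/EBP pattern, matched in C3 and in the windows of C1qc and C5ar1, and occurs in 36.9% of them, so it does not set C3 apart. TGANTCA, an AP-1 pattern, matched in C3ar1 and occurs in 6.75% of them. The capitals of 1 motif do not overlap those of another, and 4 bases of the C3ar1 window lie in an annotated exon. A match describes letters only, and the data hold no measurement of factor binding.

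Both anaphylatoxin receptors were also highest in the ascites taps, and the order of the solid groups below them differed between genes. C3ar1 (ENSMUSG00000040552) measured 32.9, 17.9 and 32.3 CPM in orthotopic tumours, 199.8, 548 and 124 CPM at the first tap, and 372, 484 and 173 CPM at the second. It stood at 11.2 and 28.6 CPM in subcutaneous tumours, 18.3 to 43.9 CPM in intestinal tumours, 27.0 CPM in ovary and 10.7 CPM in intestine. No ascites library overlapped a solid one.

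C5ar1 (ENSMUSG00000049130) measured 11.6, 7.25 and 9.21 CPM in orthotopic tumours, 71.9, 304 and 52.1 CPM at the first tap, and 167, 182 and 104 CPM at the second. Subcutaneous tumours had 9.64 and 7.51 CPM, intestinal tumours 6.19 to 18.3 CPM, ovary 6.78 CPM and intestine 4.26 CPM. Here too every ascites library lay above every solid one, while the taps overlapped each other, as did the solid tumour groups. Per kilobase of exon, the second tap averaged 79.7 CPM of C3ar1 and 58.6 CPM of C5ar1, against 6.44 and 3.64 CPM in orthotopic tumours. The 2 receptors correlated at r = 0.982 over 17 libraries (0.978 without the line), and C1qa correlated with C3ar1 at 0.949 and with C5ar1 at 0.943.

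Against the 3 orthotopic tumours, C1qa, C3ar1 and C5ar1 rose at the first tap, and C1qa, C1qb, C3ar1 and C5ar1 rose at the second. C1qa was higher by 2.68 ± 0.59 on the log2 scale (SE, n = 3 against 3, edgeR adjusted p = 0.0459) at the first tap and by 3.02 ± 0.60 (0.0437) at the second. C3ar1 was higher by 3.39 ± 0.65 (0.0328) and 3.63 ± 0.65 (0.0388), and C5ar1 by 3.93 ± 0.67 (0.0262) and 4.01 ± 0.67 (0.0295). C1qb passed at the second tap, at 2.98 ± 0.64 (0.0491), and missed at the first, at 2.65 ± 0.63 (0.0575). C1qc missed at both, at 2.67 ± 0.65 (0.0638) and 2.68 ± 0.65 (0.0735), although its libraries did not overlap. Of all tested genes, 0.688% passed as higher at the first tap and 0.516% at the second. Both comparisons use the same orthotopic tumours and are not independent.

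These calls sat close to the threshold of 0.05, and their fold changes kept their direction in every refit tried. Without the second library of the first tap, C1qa came to 1.42 (adjusted p = 0.163), C3ar1 to 2.43 (0.1155) and C5ar1 to 2.62 (0.05875), so that 0 of the 9 genes passed instead of 3. Leaving out orthotopic tumour 1, 2 or 3 also left 0 of 9 passing at the first tap, as did a fit of the 2 compared groups alone. Without the third library of the first tap 6 passed, and 6 passed with DESeq2. At the second tap 4 passed, and 0 passed when any of the 6 libraries compared was left out, while 6 passed with DESeq2 or with the 2 compared groups alone. Scaling by library size alone left 1 gene passing at the first tap (C5ar1) and 0 at the second.

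**Figure D2:**
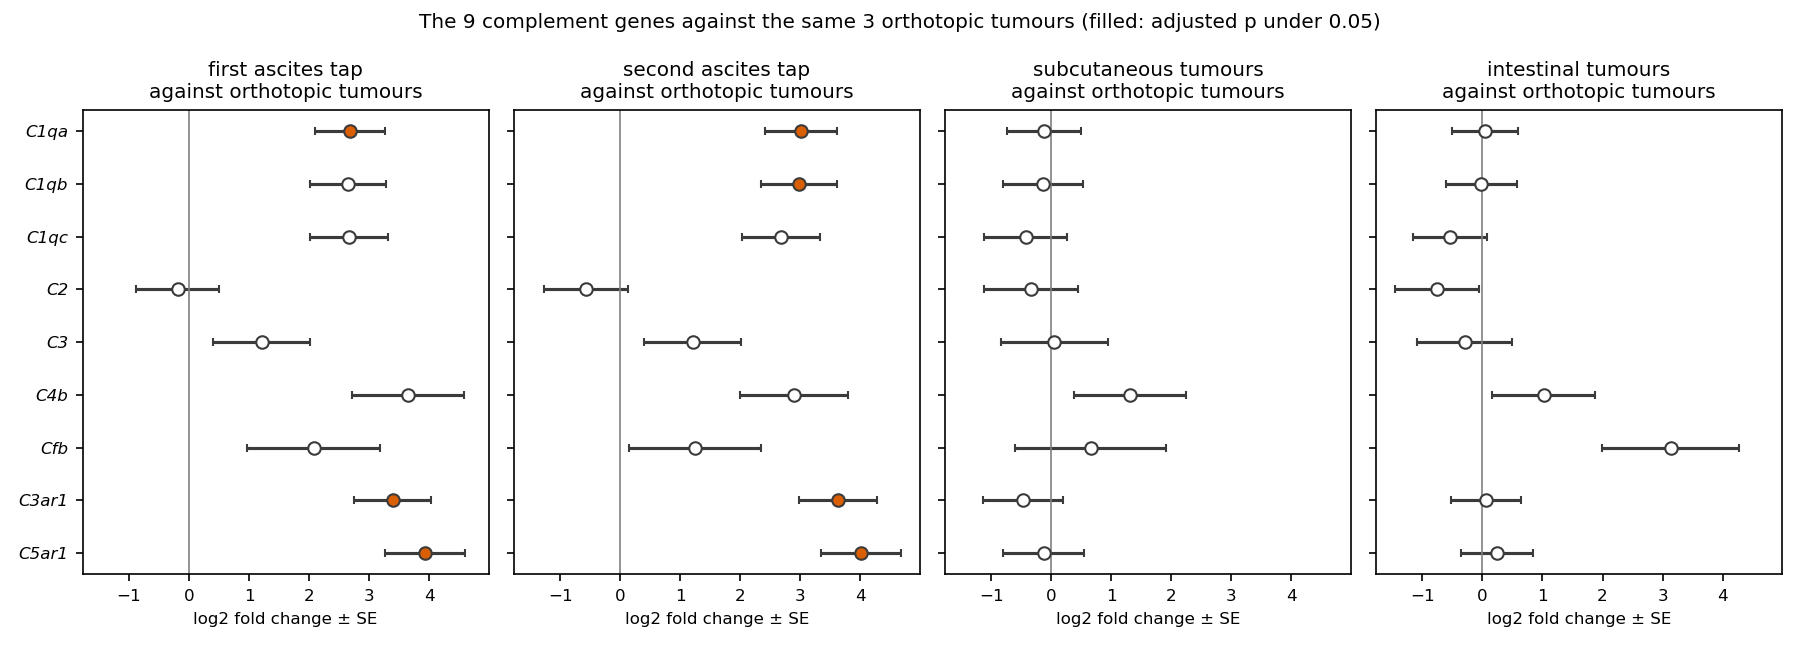
Log2 fold changes with SE (edgeR) of the 9 genes in the first tap, second tap, subcutaneous tumours and intestinal tumours, each against the same 3 orthotopic tumours; filled points have an adjusted p under 0.05. The C1q chains and both receptors lie at 2.65 to 4.01 in ascites and at -0.55 to 0.25 in solid tumours.

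Markers of several cell types moved with these genes, macrophage markers among them. The summed CPM of 10 macrophage markers, all of them detected in ascites, was 703 to 5342 at the first tap, 1357 to 2330 at the second and 221 to 264 in orthotopic tumours. C1qa equalled 13.6 to 24.4% of that sum at the first tap, 21.7 to 23.4% at the second and 19.5 to 28.2% in orthotopic tumours. The groups overlapped in this ratio, which does not correct for gene length. Per Csf1r, C1qa came to 48.8 to 77.2% at the first tap, 53.4 to 78.1% at the second and 69.1 to 94.7% in orthotopic tumours. Monocyte markers summed to 10.1 to 172 CPM in orthotopic tumours, 47.9 to 2320 CPM at the first tap and 145 to 289 CPM at the second, and neutrophil markers to 2.43 to 20.1, 6.88 to 242 and 11.2 to 93.0 CPM. Both were highest of the taps in the second library of the first tap, and monocytes and neutrophils also carry C5ar1. The fibroblast markers had a lower sum in ascites, at 168 to 964 CPM over both taps against 2061 to 4462 CPM. Not all of that list fell. Dcn was at 466, 52.7 and 839 CPM at the first tap and 314, 490 and 486 CPM at the second. Orthotopic tumours had 426, 238 and 393 CPM of it. Col1a1, also in the list, was at 5.32 to 160 CPM in the taps against 712 to 1562 CPM. Endothelial markers summed to 27.4 to 56.6 CPM in the taps against 279.8 to 501 CPM in orthotopic tumours. The line itself held 1137 CPM of the fibroblast markers, so tumour cells and fibroblasts cannot be told apart by this list. The part of these cell types was not tested. In such bulk samples more macrophages and more C1q RNA per macrophage cannot be told apart, and the part of cell number in the rise was not tested.

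C5ar1 was higher in ascites also relative to the summed macrophage markers and to Csf1r. It came to 5.69 to 9.59% of the macrophage sum in the 6 tap libraries and 3.28 to 5.00% in the orthotopic tumours, without overlap. Per Csf1r the ranges were 18.3 to 39.3% and 11.9 to 16.8%, again without overlap. Relative to Cd68 alone, another of the macrophage markers, which the line held at 4.71 CPM, the libraries did overlap. Orthotopic tumour 2 had 7.25 CPM of C5ar1 beside 16.9 CPM of Cd68, and library 1 of the first tap had 71.9 CPM beside 220 CPM. C3ar1 gave 10.3 to 26.6% of the macrophage sum against 8.12 to 14.2%, which overlapped. These ratios are descriptions of the libraries, and no test was made of them. The genes with the closest profiles over 17 libraries were Csf1r (r = 0.983), Fcer1g, P2ry6, Adgre1 and Apoe for C1qa. For C3ar1 they were Tlr13 (0.975), Itgam, Alox5ap, Fcgr3 and Ms4a6d, and for C5ar1 Tlr13 (0.986), Gp49a, Slc11a1, Tlr8 and Lrrc25.

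C3 was made by the line and did not separate ascites from solid tissue. C3 (ENSMUSG00000024164) measured 1751, 421 and 2332 CPM in orthotopic tumours, 1766 and 1349 CPM in subcutaneous tumours, and 678, 928 and 2062 CPM in intestinal tumours. In ascites it measured 2195, 647 and 7580 CPM at the first tap and 2898, 2560 and 4985 CPM at the second. Healthy ovary had 3315 CPM and healthy intestine 747 CPM. Every second-tap library thus lay above every solid tumour, while libraries 1 and 2 of the first tap did not, and healthy ovary lay within the range of each tap. The line, at 1134.5 CPM, lay within the ranges of the orthotopic and intestinal tumours and of the first tap.

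The line's C3 level equalled 75.6% of the orthotopic mean, 72.8% of the subcutaneous mean, 92.8% of the intestinal tumour mean and 32.7% and 32.6% of the means of the first and second tap. None of the differences from the line passed. They were 0.40 ± 1.15 (edgeR adjusted p = 0.883) in orthotopic tumours, 0.46 ± 1.22 (0.821) in subcutaneous tumours, 0.11 ± 1.13 (0.969) in intestinal tumours and 1.62 ± 1.204 (0.443) in both taps. The line is 1 library and is assumed to vary like the other groups, so these comparisons have no replicate check. Against orthotopic tumours C3 was higher by 1.21 ± 0.81 at the first tap (0.446) and 1.21 ± 0.81 at the second (0.476), both short of the threshold. Leaving out the third library of the first tap took the former to -0.19.

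The C3 libraries spread widely within groups. The highest library was 11.7 times the lowest at the first tap and 5.54 times in orthotopic tumours, against 5.14 and 1.52 times for C1qa. The second library of the first tap had the highest C1qa (727 CPM), the highest macrophage sum (5342 CPM) and the lowest C3 of the taps (647 CPM). The third library of that tap had the highest C3 (7580 CPM) with a macrophage sum of 703 CPM. The CPM of C3 was 0.890 times that of C1qa in the former and 44.2 times in the latter, and 5.32 to 16.5 times at the second tap. In orthotopic tumours the ratio ran from 9.77 to 43.5 times, in intestinal tumours from 18.8 to 24.8 times, and in ovary it was 93.2 times. Because the genes differ in length, this ratio compares libraries and not genes.

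Mesothelial markers were set beside C3 as well. The third library of the first tap held 6026 CPM of 6 mesothelial markers, including 584 CPM of Msln (mesothelin) and 2407 CPM of Upk3b, the highest of all libraries. The second library of that tap held 306 CPM of them. Over 17 libraries log2(CPM + 1) of C3 correlated with the log2 of the mesothelial sum at r = 0.633 (0.669 without the line). It correlated with the sum of granulosa and steroidogenic markers at 0.586 (0.584 without the line), with the macrophage sum at 0.197 and with the fibroblast sum at -0.02. Subcutaneous tumour 2 went against the relation to mesothelial markers, with 1766 CPM of C3 and 34.1 CPM of mesothelial markers. The line itself held 1505 CPM of the mesothelial markers, with none of the 6 at 0, so tumour cells and mesothelium cannot be told apart by this list. The closest profiles to C3 were those of Arhgap44 (r = 0.906), Crls1, Rab6b, Pde10a and Nova1.

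**Figure D3:**
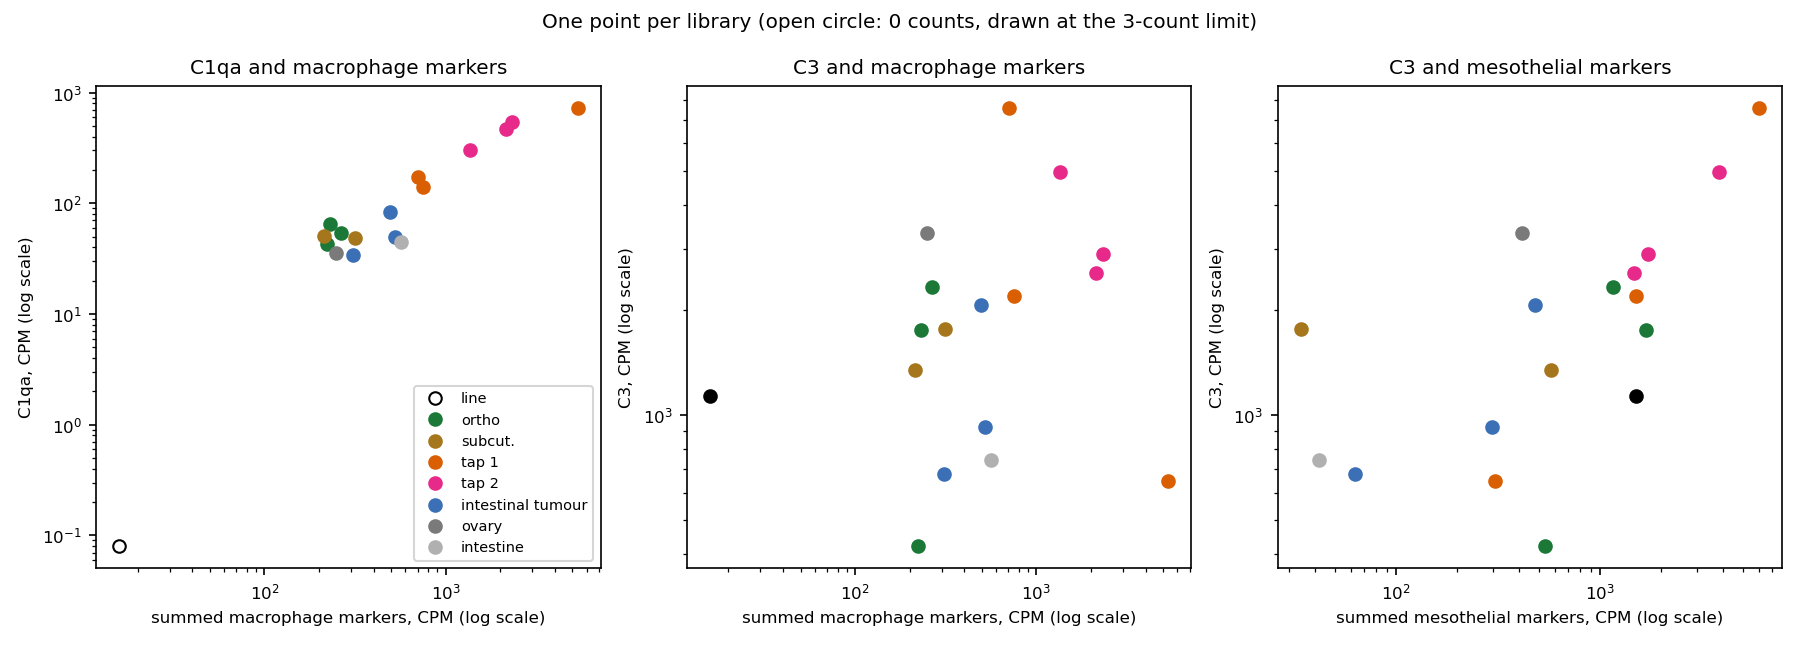
Levels per library on log axes: C1qa against the summed macrophage markers, C3 against the same sum, and C3 against the summed mesothelial markers, each point 1 library and colours the groups. C1qa lines up with the macrophage sum (r = 0.964 over 17 libraries), while C3 reaches 7580 CPM at a macrophage sum of 703 CPM and lies at 1134.5 CPM in the line.

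Of the convertase components, C4b varied closely with C1q, and C2 and Cfb less closely with C1q or C3. Over 17 libraries C1qa correlated with C4b at r = 0.921, with C2 at 0.288 and with Cfb at 0.088. C3 correlated with C2 at 0.393 and with Cfb at -0.26. Without the line C1qa correlated with C4b at 0.888, with C2 at -0.446 and with Cfb at -0.188, so the sign for C2 and Cfb rested on that library. C2 and C4b then correlated at -0.628, and C3 with C2 at 0.419 and with Cfb at -0.313. C4b (ENSMUSG00000073418), which encodes complement C4, measured 8.36, 6.25 and 6.71 CPM in orthotopic tumours, 10.3, 227 and 29.9 CPM at the first tap, and 79.3, 36.2 and 43.6 CPM at the second. It stood at 24.1 and 11.1 CPM in subcutaneous tumours, 7.24 to 21.4 CPM in intestinal tumours, 7.004 CPM in ovary and 7.55 CPM in intestine. All ascites libraries exceeded all orthotopic ones, but the lowest tap library, at 10.3 CPM, lay below both subcutaneous tumours. The differences, 3.65 ± 0.93 at the first tap (edgeR adjusted p = 0.0713) and 2.90 ± 0.90 at the second (0.140), missed the threshold. Without the second library of the first tap the former was 1.40 (0.344).

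C4b correlated with the macrophage sum at r = 0.933 over 17 libraries (0.894 without the line) and with the fibroblast sum at -0.54. The genes most like it were Stab1 (r = 0.966), Fes, Tlr8, Cd33 and Vsir. Relative to the macrophage sum it came to 1.38 to 4.25% in the taps, 2.54 to 3.61% in orthotopic tumours and 5.21 and 7.64% in subcutaneous tumours. C4a, a near-identical copy, measured 0.237 to 2.16 CPM, and reads shared between the copies could have been split by the counting.

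C2 (ENSMUSG00000024371) measured 21.8, 16.2 and 16.5 CPM in orthotopic tumours, 10.5, 2.12 and 35.3 CPM at the first tap, and 10.0, 12.9 and 13.9 CPM at the second. Subcutaneous tumours had 8.73 and 19.98 CPM, intestinal tumours 8.22 to 12.6 CPM, ovary 19.6 CPM and intestine 14.8 CPM. It was the only one of the 9 genes whose second-tap libraries all lay below the orthotopic ones, at a log2 difference of -0.56 ± 0.70 (edgeR adjusted p = 0.721), which did not pass. The line's 0.954 CPM was 4.85 to 8.90% of the other groups' means, and the differences from it missed the threshold, at 4.25 ± 1.305 (0.0942) in orthotopic tumours and 3.87 ± 1.25 (0.0878) in both taps. Without the 3 libraries with most genes detected the orthotopic value passed (0.0349), and without the second library of the first tap the value in both taps passed (0.01447), as did each of the 4 comparisons of C2 with the line by DESeq2.

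The lowest C2 value outside the line, that of the second library of the first tap, came with the lowest fibroblast sum (168 CPM). That library held 8.47 CPM of Serping1, the C1 inhibitor. The line, with less C2 still (0.954 CPM), held 1137 CPM of fibroblast markers. The highest, 35.3 CPM, was in the third library of that tap, which also had the highest C3. C2 correlated with the fibroblast sum at r = 0.462 (0.605 without the line) and with the macrophage sum at 0.129 (-0.61 without it). Over 17 libraries it correlated more with the endothelial sum (0.627, and 0.291 without the line) than with the fibroblast sum. The same held for the sum of granulosa and steroidogenic markers (0.533, and 0.419 without the line). Serping1 had the closest profile (r = 0.897), followed by Hlf, S100a16, Tspan7 and Fxyd1. Serping1 itself was at 0.450 CPM in the line and 101.1 to 191 CPM in orthotopic tumours.

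Cfb (ENSMUSG00000090231) was near the detection limit throughout, at 0 to 30 counts per library. It measured 0.0789 to 0.133 CPM in orthotopic tumours, 0.344 to 0.529 CPM at the first tap, 0 to 0.477 CPM at the second and 0.641 to 1.27 CPM in intestinal tumours, with 1.03 CPM in healthy intestine. Intestinal tumours lay above orthotopic tumours without overlap, by 3.13 ± 1.15 (edgeR adjusted p = 0.0830), which missed the threshold. DESeq2 gave 3.25 (adjusted p = 0.008825), and the fit of these 2 groups alone gave 3.045 (0.0152). Over 17 libraries Cfb correlated with the hepatocyte sum at r = 0.743, with the intestinal epithelial sum at 0.737, with the T cell sum at 0.682 and with the monocyte sum at 0.602. The genes most like it were Parp12 (r = 0.925), Epha1, Calml4, Mxd1 and Slc26a6.

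The gene models of C2 and Cfb overlap another gene. In GENCODE M21 the exons of Cfb share 2246 of 2825 bases (79.5%), and those of C2 share 1656 of 3872 bases (42.8%), with Gm20547 on the same strand. Gm20547 had 0 counts in every library. How reads in shared exons were counted is not given in the sources used here, so the levels of Cfb and C2 may be too low. Its part in their low values was not tested.

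Among solid tumours none of the 9 genes passed by edgeR. Between subcutaneous and orthotopic tumours 0 of 9 passed, where 0.0132% of all tested genes did, so that the count says nothing particular of the 9, and 0 of 9 had an unadjusted p under 0.05 (0 of 9 passed with DESeq2). The values ran from -0.48 ± 0.67 for C3ar1 to 1.31 ± 0.93 for C4b (edgeR adjusted p = 0.694 and 0.420), and for C4b the groups did not overlap. Between intestinal and orthotopic tumours 0 of 9 passed, where 15.5% of all genes did, and 1 had an unadjusted p under 0.05 (Cfb, described above). C1qa differed there by 0.04 ± 0.55 (0.972), C3ar1 by 0.06 ± 0.59 (0.961) and C5ar1 by 0.25 ± 0.60 (0.813). Scaled by library size alone, C1qa and C3ar1 came to -0.17 and -0.15.

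In intestinal tumours C1qa was a smaller share of the macrophage sum, 9.47 to 16.8%, than in orthotopic tumours, 19.5 to 28.2%. The share was also low in healthy intestine, at 7.96%, and in healthy ovary it was 14.3%. Mertk, 1 of the 10 markers, stood at 96.2 to 337% of Csf1r in intestinal tumours and at 59.2 to 135% in orthotopic tumours. Healthy intestine had 224% and healthy ovary 80.6%, so a low share with high Mertk was not particular to the intestinal tumours. Per Csf1r alone C1qa came to 51.8 to 76.3%, which overlapped the orthotopic range.

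Between the taps 0 of 9 genes passed, as did 0% of all genes by edgeR (145 genes, and 0 of the 9, had an unadjusted p under 0.05, and 1 gene passed with DESeq2). C1qa differed by 0.33 ± 0.55 (edgeR adjusted p = 1.00), C3 by 0.00 ± 0.80 and C4b by -0.75 ± 0.84. Against healthy ovary, orthotopic tumours gave 0 of 9, where 0.6% of all genes passed, and intestinal tumours against healthy intestine gave 0 of 9 where 0% did. In each, 0 of the 9 had an unadjusted p under 0.05, and of all genes 2541 and 584 did, with 780 and 45 passing with DESeq2. The log2 difference of C3 between orthotopic tumours and the ovary library was -1.14 ± 1.06 (edgeR adjusted p = 0.755), and that of C3ar1 between intestinal tumours and the intestine library was 1.43 ± 0.92 (1.00).

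C1q and the receptors were higher in every tumour group than in the line. Healthy tissue held them too, so their presence was not particular to tumours. Healthy ovary and intestine had 35.6 and 44.9 CPM of C1qa, 27.0 and 10.7 CPM of C3ar1, and 6.78 and 4.26 CPM of C5ar1. In orthotopic tumours 5 of 9 genes rose (C1qa, C1qb, C1qc, C3ar1 and C5ar1), where 2.37% of all genes passed as higher. In subcutaneous tumours (6.25%), both taps (3.84%) and intestinal tumours (9.55%) C4b rose with them, as 6 of 9. The C1q chains were at least 680-fold (C1qa), 1098-fold (C1qb) and 693-fold (C1qc) higher in orthotopic tumours than the line's limit of 3 counts. Their means over the 6 tap libraries pooled were at least 4931-, 7779- and 4424-fold higher. C5ar1 was at least 118-fold higher in orthotopic tumours and 1845-fold in the pooled taps, and C4b at least 894-fold in the pooled taps. These folds describe pooled means and do not bound each tap or library, since C4b ran from 10.35 to 227 CPM in the taps. C3ar1, which the line had at 22 counts, was 47.6-fold higher in orthotopic tumours and 544-fold in the pooled taps.

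The adjusted p-values by edgeR were 0.0102 for C1qa, 0.0323 for C3ar1 and 0.0171 for C5ar1 in orthotopic tumours, and 0.00375, 0.00762 and 0.00521 in both taps. All these comparisons share the 1 line library. C3ar1 was not past the threshold in orthotopic tumours when tumour 1, 2 or 3 was left out (edgeR adjusted p = 0.0638, 0.0542 and 0.0621) or with library size alone (0.0540). C4b missed in subcutaneous tumours without tumour 2 (0.0521), the library with B cell and adipocyte markers.

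The wider pathway was followed in 45 other complement genes, of which 42 were tested. At the first tap 5 of 42 rose and 0 fell against orthotopic tumours, and at the second 3 rose and 0 fell, where 0.688% and 0.516% of all tested genes passed as higher. The median log2 fold change of the 42 was 0.75 and 0.73, beside 0.18 and 0.13 over all genes and 2.67 and 2.90 over the 9. Among recognition molecules, Fcna (ficolin A, a lectin of macrophages) rose by 6.26 ± 1.17 (edgeR adjusted p = 0.0313) and 6.38 ± 1.17 (0.0405), from 2.01 CPM to means of 155 and 168 CPM. Cfp (properdin, which stabilises the alternative convertase) rose by 4.77 ± 0.91 (0.0328) and 4.74 ± 0.90 (0.0424), with tap libraries between 84.3 and 675 CPM and orthotopic tumours between 7.81 and 12.2 CPM.

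Among the receptors, 2 of 7 rose at the first tap and 1 at the second (0.688% and 0.516% of all tested genes). Itgam and Itgb2 encode the chains of complement receptor 3, which binds C3 fragments. The exons of Itgam share 3450 of 5024 bases (68.7%) with other annotated genes on the same strand, so its levels carry the same caution as those of C2 and Cfb. Itgam rose by 5.00 ± 0.92 (edgeR adjusted p = 0.0312) and 4.67 ± 0.91 (0.0436), and Itgb2 by 4.33 ± 0.93 (0.0427) at the first tap. Vsig4, a macrophage receptor for C3b, measured 12.7, 208 and 32.2 CPM at the first tap, 59.0, 52.9 and 23.8 CPM at the second and 0.532 to 3.9999 CPM in orthotopic tumours, without passing. Among 15 regulators, Cd55b, a decay-accelerating factor gene, rose at the first tap, by 4.15 ± 0.87 (0.0399), from 0.0680 to 1.26 CPM; it is a near copy of Cd55, and reads may have been split between them. As for the 9 genes, the calls of Fcna, Cfp, Itgam, Itgb2 and Cd55b at the first tap were lost without any orthotopic tumour and without the second library of that tap (adjusted p from 0.0780 to 0.143 for the latter). Those at the second tap were lost without any library compared.

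The line expressed several of these genes besides C3. Per kilobase of exon it held 221 CPM of C3, 112 CPM of Clu (clusterin, an inhibitor of the membrane attack complex), 82.7 CPM of C1s1 and 14.7 CPM of C1ra (the proteases of the C1 complex) and 54.2 CPM of Cd55 (decay-accelerating factor). Of the terminal genes, C6, C7, C8a and C8b had 0 counts in it, Hc (C5) had 2, C9 had 22 and C8g had 79, or 2.09 CPM, which is 90.2% of the orthotopic mean. In both taps together 8 of the 42 rose against the line and 0 fell, where 3.84% of all tested genes passed as higher, among them Itgam (at least 12968-fold, with the caution on its exons above), C5ar2 (at least 111-fold), Fcna and Serping1. Serping1 rose in all 4 comparisons with the line, by 8.27 ± 1.61 in orthotopic tumours (edgeR adjusted p = 0.0220) and 7.39 ± 1.53 in both taps (0.0186). Cfd (factor D, made by fat cells) stood at 0.106 CPM in the line, 0 to 0.421 CPM in the taps, 30.2 to 232 CPM in orthotopic tumours and 1716 CPM in subcutaneous tumour 2, the library with 4183 CPM of adipocyte markers. The part of fat in that value was not tested.

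In intestinal against orthotopic tumours, Colec10 (a collectin) rose (edgeR adjusted p = 0.0325), from 0 to 0.0526 CPM to 5.46 to 9.34 CPM, and Cfi (factor I, which degrades C3b) fell by 3.60 ± 0.80 (0.0127). The other 40 of 42 did not pass, and 15.5% of all tested genes passed in this comparison. Hepatocyte markers, several of which gut epithelium also expresses, summed to 1413 to 5929 CPM in the intestinal tumours, 4169 CPM in healthy intestine and 9.86 to 37.9 CPM in orthotopic tumours. The call of Colec10 was lost when any orthotopic tumour or intestinal tumour 1 or 2 was left out (adjusted p from 0.0669 to 0.118), and that of Cfi was not lost in any refit. Colec10 was at 4.62 CPM in healthy intestine, and Cfi at 25.8 CPM in healthy ovary, at 4.24 to 10.3 CPM in orthotopic tumours and at 0.214 to 0.764 CPM in intestinal tumours. The part of the host organ in these values was not tested.

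Complement genes can be induced by interferon and in the acute phase, so 14 such genes were set beside them. At each tap 1 of 14 rose against orthotopic tumours (0.688% and 0.516% of all tested genes), Saa3 (serum amyloid A3), by 6.49 ± 1.33 at both (edgeR adjusted p = 0.0384 and 0.0466). Its libraries were at 191, 100.3 and 161 CPM at the first tap and 109, 145 and 200.3 CPM at the second, against 0.133 to 3.45 CPM in orthotopic tumours. These calls were lost without any orthotopic tumour, without library 1 or 2 of the first tap, and without any library of the second. Saa3 stood at 1.06 CPM in the line, and its lowest tap library, like that of C3, was the second library of the first tap. In intestinal tumours 3 of 14 rose, Irf1 by 2.97 ± 0.42 (0.00125), Irf7 by 3.40 ± 0.72 (0.0105) and Gbp2 by 1.66 ± 0.47 (0.0340), where 15.5% of all tested genes passed in either direction, so that the share of the list is near that background. Gbp2 no longer passed when any library except orthotopic tumour 1 was left out, nor Irf7 without orthotopic tumour 2 (0.0563). Healthy intestine held 197 CPM each of Irf1 and Irf7, and the intestinal tumours held means of 208 and 131 CPM.

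**Figure D4:**
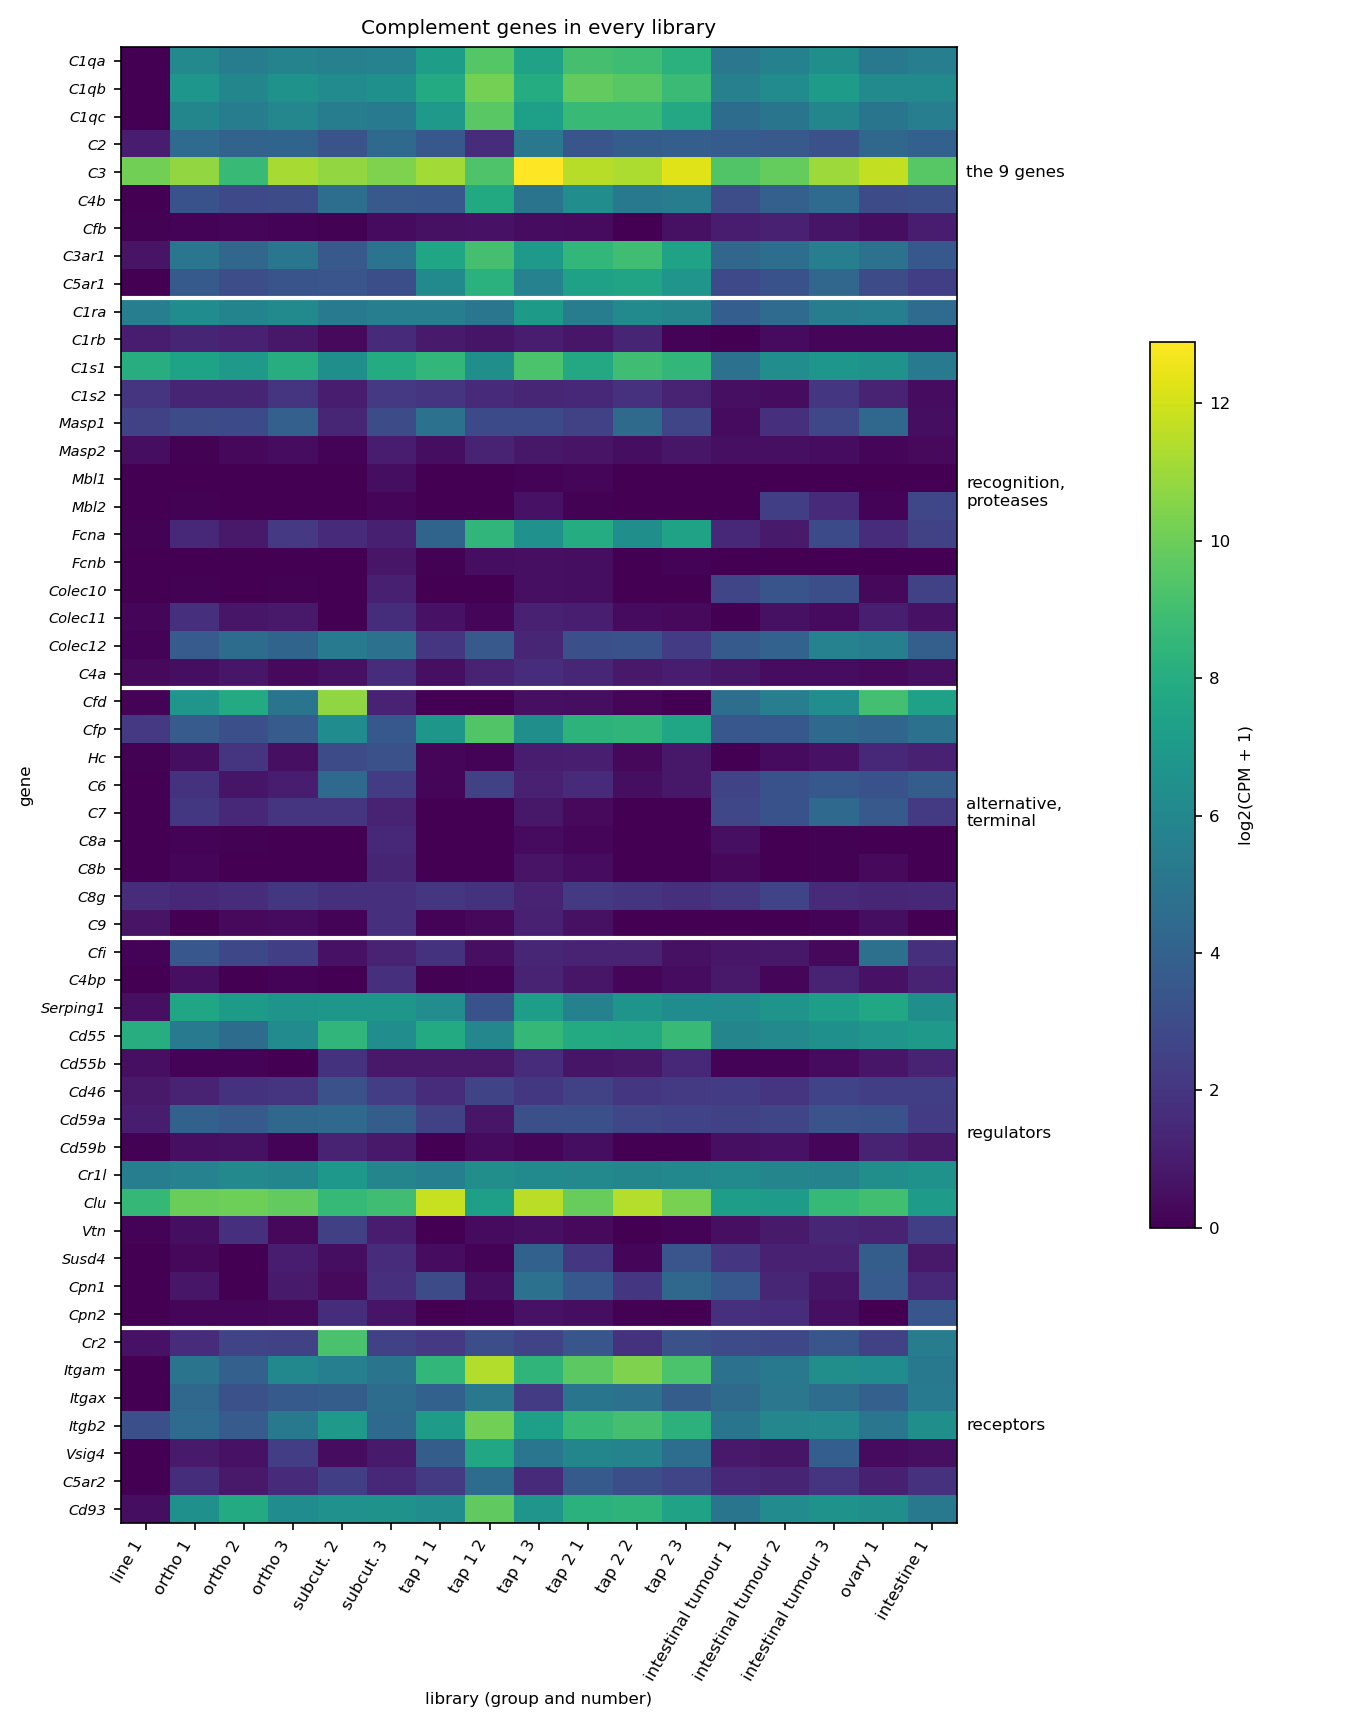
Log2(CPM + 1) of the 9 genes and 44 other complement genes (rows, by role) in the 17 libraries (columns, by group and number). C3 and Clu are bright in the line, where the C1q chains are dark, and the C1q chains, C3ar1, C5ar1, Fcna, Cfp, Itgam, Itgb2 and Vsig4 are brightest in the second library of the first tap.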

How the data were processed

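Total RNA was sequenced after directional library preparation, per the labels' protocols. The authors deposited raw counts per gene as 1 table. HISAT, HISAT2, featureCounts and DESeq2 and the builds hg19 and mm39 are named in the submitters' processing notes, with no versions or roles. 1 column matched no sample's labels and was not used. Of 43629 gene IDs, 42462 matched the reference tables.

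Genes over 0.5 CPM in at least 2 libraries (22671) were fitted with edgeR 4.0.16 in R 4.3.3 by a robust quasi-likelihood test with TMM scaling on all 17 libraries and 8 groups (9 residual degrees of freedom), with Benjamini-Hochberg adjustment over all tested genes and a threshold of 0.05. Single-library groups were assumed to vary like the others. SE was derived from the log2 fold change and its F statistic. Folds against 0 counts set the mean over all libraries compared against a floor of 3 counts, and are lower bounds for that mean. Correlations are Pearson's, of log2(CPM + 1). DESeq2 1.42.0 and other settings were alternatives. Lengths and exon overlaps came from GENCODE M21.

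The 9 genes and all lists were chosen with earlier results of these data known. The values of 1 listed gene are not reported here. Named beside them were up to 4 listed genes per direction by smallest p, and for each gene except C1qb and C1qc the 5 genes of at least 10 CPM most correlated with it. Tested on simulated data for the first tap against orthotopic tumours (21614 genes), the fit recovered 28% of 4-fold and 82% of 16-fold changes and called 5 of 21414 unchanged genes.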

Additional observations from a re-analysis of the deposited data

How the results depend on the processing

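Over 969 refits of the 9 genes' fold changes, the 264 refits of the 30 called values all kept their direction, 62 of them were no longer past the threshold, and 26 uncalled values passed. A sign changed in 86, none of them a called value. Of 453 refits of 50 called values of other genes, 453 kept their direction and 139 no longer passed. The cause of these changes was not tested.

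Of the 9 genes, 3 passed at the first tap against orthotopic tumours. With library size alone 1 passed, with DESeq2 6, with the compared groups alone 0, and without the 3 libraries with most genes detected, an alternative chosen after seeing the data, 6. At the second tap 4 passed, and 0 with library size alone and 2 without those 3 libraries. In intestinal against orthotopic tumours 0 passed, and 1 with DESeq2 or with the compared groups alone. Leaving out 1 library gave 0 to 6 at the first tap, 0 at the second, 4 in orthotopic tumours against the line, 5 to 6 in subcutaneous tumours, 6 to 7 in both taps and 6 in intestinal tumours against the line, and 0 in the other comparisons.

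Counts of all genes passing moved further. By edgeR they were 358 at the first tap, 248 at the second, 0 between taps, 3 in subcutaneous and 3517 in intestinal against orthotopic tumours. Against the line they were 726 in orthotopic tumours, 2151 in subcutaneous tumours, 1405 in both taps and 3441 in intestinal tumours, and against healthy ovary and intestine 136 and 0. With DESeq2 these were 2591, 2021, 1, 2300, 5983, 3809, 6060, 4320, 6540, 780 and 45. With library size alone they were 83 and 17 at the taps, 6 in subcutaneous against orthotopic tumours and 460 in orthotopic tumours against the line. Without the filter they were 140 in subcutaneous against orthotopic tumours, and 1418, 927 and 2276 in subcutaneous tumours, taps and intestinal tumours against the line. With the compared groups alone they were 79 and 1787 at the taps, and 0 and 5304 in subcutaneous and intestinal against orthotopic tumours. Without the 3 libraries they were 1352 at the first tap, 1113 in subcutaneous against orthotopic tumours, 1219 in orthotopic tumours against the line and 265 against ovary. Leaving out 1 library gave 18 to 793 at the first tap, 1 to 76 at the second, 0 between taps, 0 to 987 in subcutaneous and 1211 to 4085 in intestinal against orthotopic tumours. Against the line it gave 309 to 391 in orthotopic tumours, 1026 to 2088 in subcutaneous tumours, 849 to 1832 in both taps and 2031 to 3855 in intestinal tumours, and against ovary and intestine 3 to 17 and 0.

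Same-numbered libraries showed no consistent common deviation from their group means. Correlations of these deviations ran from -0.549 to 0.163, and 0 to 2 of 3 numbers correlated best with their own. With 3 libraries per group, such a check cannot show which samples share an animal. With the replicate block on the 14 numbered libraries, 0 of the 9 genes passed at either tap, and 29, 18 and 8 genes in all passed at the first tap, the second tap and in subcutaneous tumours against orthotopic tumours. Without the block, the same 14 libraries gave 2 of the 9 at the second tap.

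Library size alone shifted the median log2 fold change of all genes by -0.291 in intestinal against orthotopic tumours, by 0.143, 0.246 and -0.179 in orthotopic, subcutaneous and intestinal tumours against the line, and by 0.163 in intestinal tumours against intestine. As CPM of the library total alone, the subcutaneous means of C1qa, C1qb and C1qc were 57.6, 93.0 and 47.1. Healthy ovary had 39.7 (C1qa), 79.5 (C1qb), 34.3 (C1qc), 22.0 (C2), 3705 (C3) and 30.1 (C3ar1). Healthy intestine had 34.5 (C1qa), 52.7 (C1qb), 34.3 (C1qc), 11.4 (C2), 574 (C3), 5.80 (C4b), 8.25 (C3ar1) and 3.28 (C5ar1), and the line had 1101 of C3. Depth limited Cfb, at 0 to 30 counts per library, most.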
